A study of Homo sapiens with 6 samples.

Results

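Endothelial and caveolar genes were followed in SK-Hep1 cells through 6 members chosen by name: EGFL7, ENG, ROBO4, NRP1, CAV1 and CAV2. All 6 were found among the 11593 gene symbols listed, through 26 of the 28768 transcript rows. SK-Hep1 is an established human line labelled as hepatocellular carcinoma, whose endothelial character has been debated. The study sought messenger RNAs retrieved together with SNHG10, a long noncoding RNA, by ChIRP, in which biotinylated antisense probes pull an RNA down with its partners. In 3 libraries the probes were the complete SNHG10 set (RiboBio Biotechnology), and in 3 control libraries they were a LacZ set (Millipore), aimed at a bacterial gene that human cells lack. Both groups came from the same untreated line, and the labels give no genotype, treatment or time point. Nothing states that replicates were separate cultures, so each p-value reflects the scatter among these 6 libraries, which could be technical in origin. The labels' protocol describes total RNA taken with Trizol and no pull-down step, so which RNA fraction was sequenced is not settled by the sources used here. SNHG10 itself had no row and was not analysed here, so the pull-down could not be checked by its target.

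Endothelial cells line blood vessels and are recognised by secreted factors and receptors that steer vessel growth. EGFL7 is secreted by endothelium into the matrix, where it guides vessel assembly, and its gene hosts the microRNA miR-126. ENG (endoglin) is a co-receptor for TGF-beta and BMP ligands, ROBO4 is the endothelial member of the Roundabout receptors, and NRP1 (neuropilin 1) is a co-receptor for semaphorins and VEGF. Caveolae are flask-shaped pits of the plasma membrane, abundant in endothelium, fibroblasts and fat cells, whose coat is built from caveolins and cavins. CAV1 is the caveolin that shapes them and CAV2 is its partner in the coat.

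Sequences upstream of 4 members are shown because these members span the highest level (CAV1), the lowest (ROBO4), the largest difference between probe sets (EGFL7) and an endothelial receptor of middle level (ENG). They are RefSeq sequences on GRCh38.p14, each the 250 bases before an annotated start, written 5′ to 3′ on the gene's strand. Capitals mark CAGGAA or its reverse complement TTCCTG, a form of the core bound by ETS factors, the family that holds the endothelial factors ERG and FLI1. The motif was chosen after the sequences had been seen. RefSeq starts were not matched to the starts of the transcripts listed in the files, so neither EGFL7 window is tied to a listed EGFL7 transcript.
EGFL7 first start, chr9:136658606-136658855, plus strand: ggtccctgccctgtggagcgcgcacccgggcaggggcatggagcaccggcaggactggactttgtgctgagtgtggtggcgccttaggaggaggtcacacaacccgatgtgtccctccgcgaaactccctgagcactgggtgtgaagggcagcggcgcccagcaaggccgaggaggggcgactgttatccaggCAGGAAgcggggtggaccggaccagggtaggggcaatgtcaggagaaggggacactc
EGFL7 second start, chr9:136662666-136662915, plus strand: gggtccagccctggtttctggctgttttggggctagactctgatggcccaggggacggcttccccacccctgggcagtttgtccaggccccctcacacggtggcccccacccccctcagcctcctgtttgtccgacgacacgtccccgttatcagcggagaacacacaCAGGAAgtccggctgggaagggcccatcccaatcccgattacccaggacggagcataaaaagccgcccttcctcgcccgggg
ENG, chr9:127854659-127854908, minus strand: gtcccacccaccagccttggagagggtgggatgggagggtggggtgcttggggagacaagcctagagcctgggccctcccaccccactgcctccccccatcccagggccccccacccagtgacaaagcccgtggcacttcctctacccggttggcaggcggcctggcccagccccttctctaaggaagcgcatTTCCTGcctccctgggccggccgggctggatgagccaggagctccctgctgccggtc
ROBO4, chr11:124897866-124898115, minus strand: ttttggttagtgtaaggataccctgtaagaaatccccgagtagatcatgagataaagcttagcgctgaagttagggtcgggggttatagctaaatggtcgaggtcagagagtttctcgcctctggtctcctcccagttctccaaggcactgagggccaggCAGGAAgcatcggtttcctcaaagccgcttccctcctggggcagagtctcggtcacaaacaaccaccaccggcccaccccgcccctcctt
CAV1 first start, chr7:116524759-116525008, plus strand: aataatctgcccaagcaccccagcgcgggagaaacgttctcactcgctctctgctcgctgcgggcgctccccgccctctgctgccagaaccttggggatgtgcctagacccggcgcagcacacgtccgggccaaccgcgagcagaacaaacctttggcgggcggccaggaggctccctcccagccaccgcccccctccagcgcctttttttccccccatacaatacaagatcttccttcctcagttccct

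The RefSeq table matched 5 of the 6 members, all but NRP1, with 9 windows in all. A match to CAGGAA on either strand stood once in each of the 4 windows of EGFL7, ENG and ROBO4, and in none of the 5 windows of CAV1 and CAV2. Another ETS form, CCGGAA with its reverse complement TTCCGG, which shares its GGAA with the first form but cannot match the same position, was found in none of the 9. Of 35116 promoter windows of the same length, 24.1% held CAGGAA or TTCCTG and 14.5% held CCGGAA or TTCCGG. A match is a description of the letters and was not tested as a binding site. The guanine and cytosine content of the windows ran from 54.8% (ROBO4) to 83.2% (the first CAV2 window).

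The mature arms of miR-126 are given because MIR126 lies inside EGFL7 in the RefSeq annotation. Capitals mark the seed, bases 2 to 8. The files list protein-coding transcripts only, so miR-126 was not analysed here.
hsa-miR-126-5p: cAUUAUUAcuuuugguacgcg
hsa-miR-126-3p: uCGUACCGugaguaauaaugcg

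Levels are given in FPKM (fragments per kilobase of transcript, scaled to the mapped fragments of the library), which corrects for length, summed over the listed transcripts of a gene. The members covered a wide range that separated into 4 steps. CAV1 was the most abundant, between 361 and 413 FPKM in the 6 libraries, and only 0.742% of listed genes had a higher mean. CAV2 (36.7 to 54.1 FPKM), NRP1 (33.0 to 58.2 FPKM) and ENG (30.7 to 41.8 FPKM) formed the next step, and their ranges overlapped, so that their order did not exceed their spread. EGFL7 followed at 7.45 to 26.0 FPKM. ROBO4 was the lowest at 0.805 to 2.01 FPKM, and 84.5% of listed genes had a higher mean. The ranges of CAV1 and CAV2, of ENG and EGFL7, and of EGFL7 and ROBO4 did not meet in any library.

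**Figure D1:**
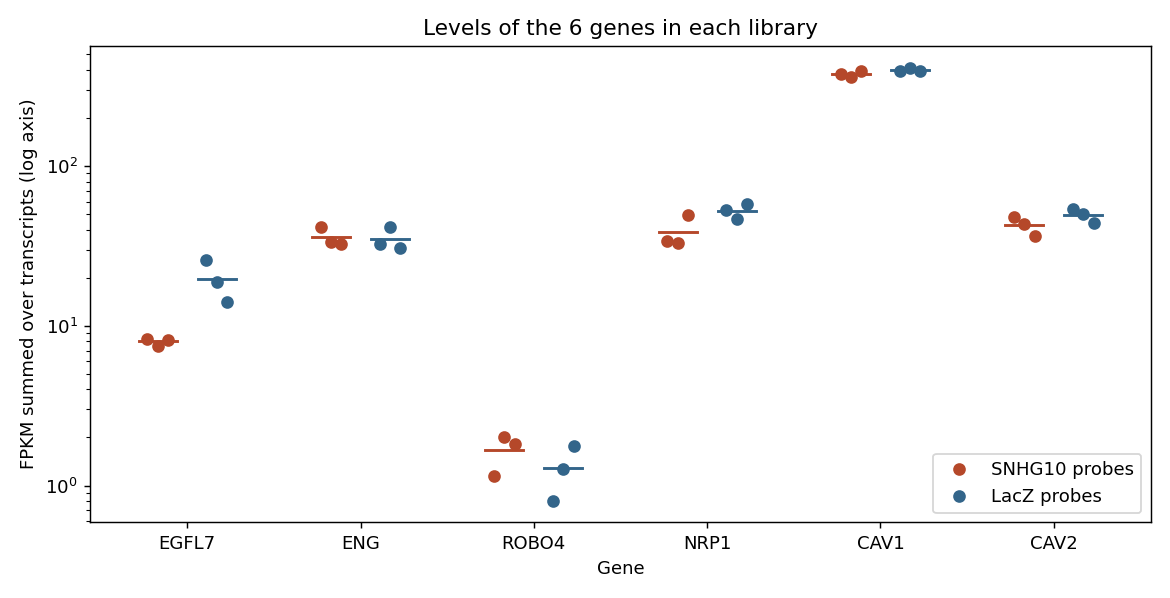
FPKM summed over transcripts (log axis) for each gene, with 1 point per library and a bar at the mean of 3 libraries, SNHG10 probes left of LacZ probes. CAV1 lies between 361 and 413 FPKM and ROBO4 between 0.805 and 2.01 FPKM, and EGFL7 is the member whose probe sets lie farthest apart.

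No member passed the test between probe sets. Of 10304 genes tested with limma on log2(FPKM + 1), 0 were higher and 0 lower with SNHG10 probes at an adjusted p of 0.05 (0% in either direction), and 558 (5.42%) had an unadjusted p under 0.05, among them 1 member, EGFL7. All 6 members passed the filter of at least 1 FPKM in at least 3 libraries and were tested. Their log2 differences, SNHG10 probes minus LacZ probes, were negative in 4 members and positive in 2, with a median of -0.15 beside -0.054 over all genes tested, of which 56.7% were negative. The 3 libraries of one probe set lay wholly apart from the other in 2 members, EGFL7 and CAV1, both lower with SNHG10 probes. Such separation was found in 11.4% of all genes tested, 7.21% in the lower and 4.22% in the higher direction. The signs of all 6 members were the same under median-ratio scaling or quantile normalization. The contrast is between probe sets used on the same untreated line, and the source of any difference was not tested. In bulk RNA of the same line, the number of cells holding an RNA and its amount per cell also cannot be told apart.

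**Figure D2:**
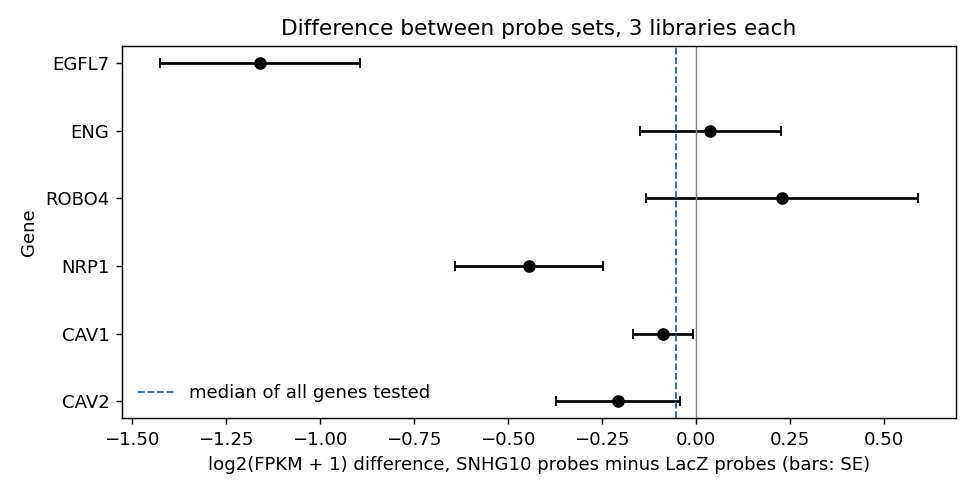
Difference in log2(FPKM + 1), SNHG10 probes minus LacZ probes, for each gene (points, with bars of 1 SE from limma) beside the median of all genes tested (dashed line, -0.054). EGFL7 stands at -1.16, and the other 5 genes lie between -0.44 and 0.23.

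EGFL7 (ENSG00000172889, chromosome 9, 139553308 to 139567130, plus strand, hg19), the secreted factor, had the widest gap. It read 8.30, 7.45 and 8.18 FPKM with SNHG10 probes, against 26.0, 18.8 and 14.0 FPKM with LacZ probes. The lowest LacZ library stood 5.72 FPKM above the highest SNHG10 library, so the probe sets did not overlap. Means were 7.98 ± 0.464 FPKM with SNHG10 probes, against 19.6 ± 6.02 FPKM with LacZ probes (SD, n = 3 each), a ratio of 0.407. The log2 difference was -1.16 ± 0.27 (SE), and the adjusted p over all genes was 0.778 by limma. The exact permutation test over 20 assignments gave 0.1, the smallest p that 3 against 3 libraries allow. Differences of -1 or lower were found in 317 genes, 3.08% of those tested.

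Its FPKM came from a single transcript in every library, and not from the same one. EGFL7-203 starts at 139553308 and EGFL7-202 starts 6936 bases further on, at 139560244, and both end at 139567130. EGFL7-202 read 0, 7.45 and 8.18 FPKM with SNHG10 probes, against 26.0, 18.8 and 0 FPKM with LacZ probes. EGFL7-203 read 8.30, 0 and 0 FPKM with SNHG10 probes, against 0, 0 and 14.0 FPKM with LacZ probes. One library of each probe set, SNHG10 replicate 1 and LacZ replicate 3, thus carried EGFL7-203 alone, and the other 4 libraries carried EGFL7-202 alone. A value of 0 in FPKM can be a failed estimate, so these entries show how the files assign the gene's signal and not that a start was unused. Both transcripts had the lower mean with SNHG10 probes, at 5.21 against 14.9 FPKM for EGFL7-202 and 2.77 against 4.68 FPKM for EGFL7-203. EGFL7-202 had a log2 difference of -0.93 ± 1.496 (SE; adjusted p = 0.959 over 16618 transcript rows by limma), and EGFL7-203 did not pass the filter.

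**Figure D3:**
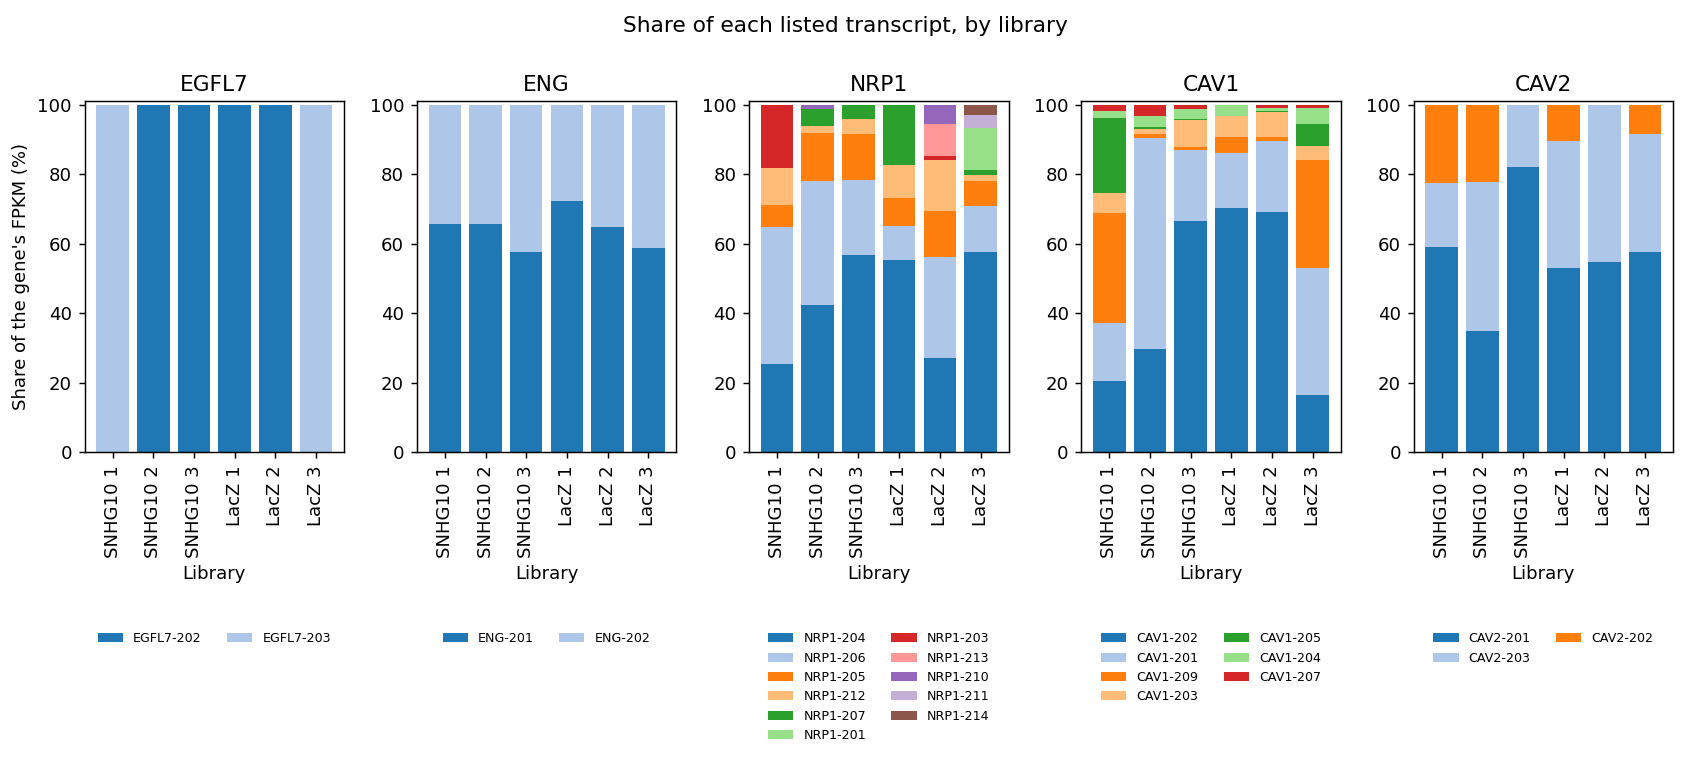
Share of each listed transcript in its gene's FPKM, in percent, stacked for each of the 6 libraries (SNHG10 replicates 1 to 3, then LacZ replicates 1 to 3). EGFL7 is held by 1 transcript in each library, ENG keeps 57.7% to 72.4% in ENG-201, and the makeup of NRP1, CAV1 and CAV2 varies between libraries of the same probe set.

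ENG (ENSG00000106991, chromosome 9, 130577291 to 130617035, minus strand), the TGF-beta and BMP co-receptor, overlapped between the probe sets. It read 41.8, 33.6 and 32.4 FPKM with SNHG10 probes, against 32.7, 41.8 and 30.7 FPKM with LacZ probes, with 1 high library in each set. The log2 difference was 0.038 ± 0.19 (SE; adjusted p = 0.985 by limma, exact permutation p = 0.8), and its sign turned when single libraries were left out, from -0.072 without SNHG10 replicate 1 to 0.17 without LacZ replicate 2. ENG is made in a long and a short form that differ in the tail inside the cell, but the files do not name which row is which. ENG-201 held 65.6%, 65.7% and 57.7% of the gene's FPKM with SNHG10 probes, against 72.4%, 64.9% and 58.8% with LacZ probes, the rest being ENG-202. The shares overlapped, with a difference of -2.35 percentage points between means (exact permutation p = 0.7). Both transcripts were above 0 in all 6 libraries, at 18.0 to 27.4 FPKM for ENG-201 and 9.03 to 14.7 FPKM for ENG-202.

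ROBO4 (ENSG00000154133, chromosome 11, 124753587 to 124768177, minus strand) was listed with 1 transcript, ROBO4-201, at low level. It read 1.15, 2.01 and 1.82 FPKM with SNHG10 probes, against 0.805, 1.28 and 1.76 FPKM with LacZ probes. The groups overlapped, with a log2 difference of 0.23 ± 0.36 (SE; adjusted p = 0.948 by limma, exact permutation p = 0.4). Without LacZ replicate 1, the lowest library, the log2 difference was 0.070. At so low a level, adding 1 before taking the log2 understates a difference.

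NRP1 (ENSG00000099250, chromosome 10, 33466420 to 33625190, minus strand), the semaphorin and VEGF co-receptor, read 34.1, 33.0 and 49.3 FPKM with SNHG10 probes, against 52.9, 46.4 and 58.2 FPKM with LacZ probes. SNHG10 replicate 3 lay above LacZ replicate 2, so the probe sets overlapped, while the other 2 SNHG10 libraries were below all LacZ libraries. Means were 38.8 ± 9.12 FPKM and 52.5 ± 5.87 FPKM (SD, n = 3 each) for SNHG10 and LacZ probes. The log2 difference was -0.44 ± 0.20 (SE; adjusted p = 0.885 by limma, exact permutation p = 0.2), and leaving out single libraries moved it between -0.34 without SNHG10 replicate 2 and -0.63 without SNHG10 replicate 3.

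NRP1 was spread over 11 listed transcripts, of which 4 were above 0 in all 6 libraries. Besides the membrane receptor, NRP1 makes soluble forms that end early and bind ligand without the membrane anchor. NRP1-204, which ends at 33486549, had the highest mean over the 6 libraries, although NRP1-206 exceeded it in SNHG10 replicate 1 and LacZ replicate 2. It read 8.70, 14.0 and 28.0 FPKM with SNHG10 probes, against 29.3, 12.7 and 33.6 FPKM with LacZ probes. NRP1-206 reaches the far 3′ end of the gene, at 33466422, and read 13.4, 11.7 and 10.7 FPKM with SNHG10 probes, against 5.16, 13.5 and 7.56 FPKM with LacZ probes. NRP1-205, ending at 33489946, lay between 2.19 and 6.49 FPKM, and NRP1-212 between 0.710 and 6.72 FPKM. The 3 rows that reach the far 3′ end (NRP1-201, NRP1-206 and NRP1-207) together held 39.3%, 40.5% and 25.7% of the gene's FPKM with SNHG10 probes, against 27.0%, 29.0% and 26.4% with LacZ probes. This share overlapped between the groups (difference 7.73 percentage points, exact permutation p = 0.4), and the rows were grouped by their ends after the values had been seen. Most NRP1 signal in all 6 libraries was thus assigned to rows ending before that point. The nearest of these rows, NRP1-210, ends at 33483295 and was at 0 in 4 libraries. Which rows code for a soluble form was not looked up, so an end before that point does not identify one. NRP1-211, NRP1-213 and NRP1-214 were each above 0 in 1 LacZ library only, at 2.07, 4.37 and 1.73 FPKM.

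CAV1 (ENSG00000105974, chromosome 7, 116164839 to 116201238, plus strand), the main caveolin, combined high level with small spread. It read 378, 361 and 392 FPKM with SNHG10 probes, against 395, 413 and 394 FPKM with LacZ probes. The probe sets did not overlap, but only 2.17 FPKM lay between SNHG10 replicate 3 and LacZ replicate 3. Means were 377 ± 15.3 FPKM with SNHG10 probes, against 401 ± 10.8 FPKM with LacZ probes (SD, n = 3 each), a ratio of 0.941. The log2 difference was -0.088 ± 0.080 (SE; adjusted p = 0.928 by limma, exact permutation p = 0.1, the smallest possible). With median-ratio scaling of the libraries it was -0.029, where the median over all genes was -0.0032. The within-group SD on the log2 scale was 0.0495, against a median of 0.399 over the genes tested, and 36 genes (0.349%) had a smaller one. That median covers genes of all levels, and CAV1 was not compared with genes of its own level. Other abundant genes had an SE near that of CAV1 (CAVIN1 0.087, KRT8 0.091, KRT18 0.085 and KRT19 0.087), while VIM had 0.21. These SE are drawn by the fit toward a trend with level, so their likeness is partly built in and does not compare spreads. Without trend the SE of CAV1 was 0.185.

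That steady sum was made of transcripts that varied widely. CAV1-202 read 78.0, 108 and 261 FPKM with SNHG10 probes, against 278, 286 and 65.3 FPKM with LacZ probes. CAV1-201 read 62.3, 219 and 80.2 FPKM with SNHG10 probes, against 62.3, 85.4 and 143 FPKM with LacZ probes. The leading row was CAV1-202 in 3 libraries, CAV1-201 in SNHG10 replicate 2 and LacZ replicate 3, and CAV1-209 in SNHG10 replicate 1. CAV1-209 read 120, 4.04 and 3.42 FPKM with SNHG10 probes, against 18.4, 4.48 and 123 FPKM with LacZ probes, so it was high in the same 2 libraries that carried EGFL7-203. CAV1-205 was also highest in those 2, at 81.1 FPKM in SNHG10 replicate 1 and 25.1 FPKM in LacZ replicate 3, and at most 2.00 FPKM elsewhere. Over the 6 libraries the coefficient of variation was 4.52% for the CAV1 sum, 59.1% for CAV1-202, 56.7% for CAV1-201 and 130% for CAV1-209. The share of CAV1-202 was 20.6% to 66.6% with SNHG10 probes, against 16.6% to 70.4% with LacZ probes (exact permutation p = 0.8).

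Among CAV1 transcripts, CAV1-207 was the one whose probe sets did not overlap. It read 6.59, 11.5 and 5.07 FPKM with SNHG10 probes, against 0.705, 3.61 and 3.93 FPKM with LacZ probes. The difference in log2 was 1.30 ± 0.56 (SE), opposite in sign to that of the gene, with an adjusted p of 0.917 by limma over transcript rows. It was 0.80 without LacZ replicate 1 and 0.71 with a pseudocount of 5. Among all 16618 rows tested, 10.5% did not overlap, 4.48% in the higher and 6.06% in the lower direction. Of the 19 member transcripts that passed the filter, log2 differences were positive in 8 and negative in 11, beside 53.9% negative among all rows. None of the 19 passed the threshold, with adjusted p from 0.917 to 0.998 by limma, and 0 had an unadjusted p under 0.05, beside 5.66% of all rows. Among all rows, 8 were higher (0.0481%) and 7 lower (0.0421%) at that threshold, a count that went to 0 and 0 when any 1 library was left out or the replicate number was a block, and to 26 and 27 without trend. The other 7 member transcripts, EGFL7-203 and 6 of NRP1, fell under the filter.

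CAV2 (ENSG00000105971, chromosome 7, 116139444 to 116148595, plus strand), the partner caveolin, lies 16243 bases before CAV1 on the same strand. It read 48.3, 43.4 and 36.7 FPKM with SNHG10 probes, against 54.1, 50.0 and 44.2 FPKM with LacZ probes. Only SNHG10 replicate 1 lay within the LacZ range, and the log2 difference was -0.21 ± 0.16 (SE; adjusted p = 0.928 by limma, exact permutation p = 0.2). It was -0.10 without SNHG10 replicate 3 and -0.30 without SNHG10 replicate 1. CAV1 exceeded CAV2 7.84, 8.33 and 10.7 times with SNHG10 probes, against 7.32, 8.27 and 8.91 times with LacZ probes, so the ratio overlapped between the groups (exact permutation p = 0.6). CAV2-201 was the leading row in 5 of 6 libraries, at 28.5, 15.1 and 30.1 FPKM with SNHG10 probes, against 28.6, 27.4 and 25.5 FPKM with LacZ probes. CAV2-203, a shorter row, read 8.995, 18.6 and 6.59 FPKM with SNHG10 probes, against 19.7, 22.6 and 14.9 FPKM with LacZ probes, and led in SNHG10 replicate 2. CAV2-202 was listed at 0 in SNHG10 replicate 3 and LacZ replicate 2 and reached 10.8 FPKM in SNHG10 replicate 1.

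Partners of the members were followed through 6 lists with 127 different genes, of which 75 were among the rows and 62 passed the filter. None of the 62 passed the threshold, with a smallest adjusted p of 0.885 by limma, and 2 (CAVIN3 and ACVR1) had an unadjusted p under 0.05. Log2 differences were positive in 28 and negative in 34, with a median of -0.016 beside -0.054 over all genes tested. This split depended on the scaling, being 36 positive and 26 negative under either median-ratio scaling or quantile normalization. Probe sets did not overlap in 12 of the 62 (19.4%), against 11.4% of all genes tested.

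The caveola machinery was nearly complete. Of 17 listed genes 14 were among the rows and all 14 were tested, while CAV3, the muscle caveolin, CAVIN4 and PACSIN1 were not among the rows. Of the 14, 8 were positive and 6 negative, with a median log2 difference of 0.12, and 11 and 3 with median-ratio scaling. CAVIN1, the cavin needed for caveola formation, was close to CAV1 in level at 287 to 323 FPKM, and the ratio of CAV1 to CAVIN1 was 1.25, 1.23 and 1.36 with SNHG10 probes, against 1.36, 1.39 and 1.22 with LacZ probes (exact permutation p = 0.8). CAVIN2 read 109, 99.2 and 90.5 FPKM with SNHG10 probes, against 113, 126 and 114 FPKM with LacZ probes, without overlap (log2 difference -0.24 ± 0.12 SE, adjusted p = 0.893 by limma). CAVIN3, the third broadly expressed cavin, lay the other way, at 27.1, 28.8 and 38.5 FPKM with SNHG10 probes, against 19.3, 26.2 and 18.1 FPKM with LacZ probes (0.55 ± 0.22 SE, adjusted p = 0.885 by limma). FLOT1, a flotillin of other membrane domains, lay between 69.7 and 86.9 FPKM. ROR1, a receptor tyrosine kinase that binds caveola proteins, lay between 1.95 and 10.1 FPKM.

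Few further endothelial identity genes were listed. Of 37, only 11 were among the rows and 7 were tested. PECAM1, CDH5, KDR, FLT1, TEK, TIE1, VWF, CLDN5, ERG and CD34, which define endothelium in most tissues, were among the 26 missing from the rows and not analysed here. PROCR, the endothelial protein C receptor, was the highest at 44.8 to 57.0 FPKM, followed by S1PR1, a receptor for sphingosine 1-phosphate, at 22.5 to 37.1 FPKM and the sialomucin PODXL at 4.44 to 28.4 FPKM. FLI1, an ETS factor, read 0.865, 0 and 1.93 FPKM with SNHG10 probes, against 0, 5.52 and 4.77 FPKM with LacZ probes. MCAM (3.15 to 11.7 FPKM), THBD (1.61 to 3.44 FPKM) and NOS3 (0.717 to 1.51 FPKM) were also listed and tested. SOX7, SOX18, MMRN2 and APLN were among the rows but fell under the filter. Of the 7 tested, 2 were positive and 5 negative, with a median log2 difference of -0.088 (3 and 4 with median-ratio scaling) that turned to 0.011 without LacZ replicate 3, and none of the 7 separated the probe sets.

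Receptor partners were represented unevenly. For NRP1, 13 of 19 genes were among the rows and 10 were tested, 4 positive and 6 negative, with a median of -0.044 that turned to 0.0093 with median-ratio scaling and to 0.019 with quantile normalization. GIPC1, the adaptor that binds the tails of NRP1 and ENG, read 53.7, 89.5 and 99.0 FPKM with SNHG10 probes, against 104, 114 and 112 FPKM with LacZ probes, without overlap (-0.49 ± 0.22 SE, adjusted p = 0.885 by limma). Without SNHG10 replicate 1, its lowest library, the log2 difference of GIPC1 was -0.22. VEGFB was at 14.9 to 26.9 FPKM, VEGFC at 3.07 to 8.002 FPKM and the ligand SEMA3C at 17.0 to 20.7 FPKM. For ENG, 21 of 27 genes were among the rows and 19 were tested, 6 positive and 13 negative, with a median of -0.079 (8 and 11 after median-ratio scaling, 9 and 10 after quantile normalization). ACVRL1, the endothelial type I receptor that pairs with ENG, and its ligands GDF2 and BMP10 were not among the rows. ACVR1, a related type I receptor, read 3.72, 1.66 and 4.61 FPKM with SNHG10 probes, against 10.5, 10.8 and 5.04 FPKM with LacZ probes (-1.18 ± 0.42 SE, adjusted p = 0.885 by limma). ACVR2B, a type II receptor, read 1.46, 1.49 and 1.79 FPKM with SNHG10 probes, against 0, 0.839 and 0.668 FPKM with LacZ probes (0.83 ± 0.39 SE, adjusted p = 0.885). MMP14, the protease that sheds ENG from the cell, lay at 39.7 to 47.9 FPKM and TGFB1 at 34.8 to 51.5 FPKM.

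For ROBO4, 5 of 10 Roundabout and Slit genes were among the rows and all 5 were tested, 3 positive and 2 negative, with a median of 0.27 (4 and 1 with either other scaling). ROBO1, the broadly expressed receptor, read 3.38, 4.72 and 16.7 FPKM with SNHG10 probes, against 4.88, 6.07 and 5.15 FPKM with LacZ probes, above ROBO4 in every library. The ligand SLIT2 read 1.46, 1.36 and 1.501 FPKM with SNHG10 probes, against 0.917, 0.958 and 0.544 FPKM with LacZ probes, and SLIT3 lay between 2.78 and 4.99 FPKM. UNC5B, a reported binding partner of ROBO4, was not among the rows. The adaptors SRGAP1 and SRGAP2 lay between 1.88 and 4.83 FPKM and between 9.01 and 17.1 FPKM.

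For EGFL7, which binds Notch receptors, 12 of 18 genes were among the rows and 8 were tested, 5 positive and 3 negative, with a median of 0.33. NOTCH2 was the main receptor at 67.4 to 78.8 FPKM, and the endothelial NOTCH4 and its ligand DLL4 were not among the rows. LOXL2, a lysyl oxidase that EGFL7 is reported to bind, was at 131 to 176 FPKM. ITGAV, an integrin chain, read 10.0, 10.6 and 9.75 FPKM with SNHG10 probes, against 8.80, 5.25 and 5.90 FPKM with LacZ probes (0.57 ± 0.27 SE, adjusted p = 0.885 by limma). The Notch ligand JAG2 read 2.53, 1.40 and 1.25 FPKM with SNHG10 probes, against 0.633, 0.627 and 0.579 FPKM with LacZ probes. DLL3, an inhibitory Notch ligand, read 0.530, 1.22 and 2.07 FPKM with SNHG10 probes, against 2.29, 3.94 and 2.09 FPKM with LacZ probes. All 3 were without overlap between probe sets, and none passed the threshold.

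**Figure D4:**
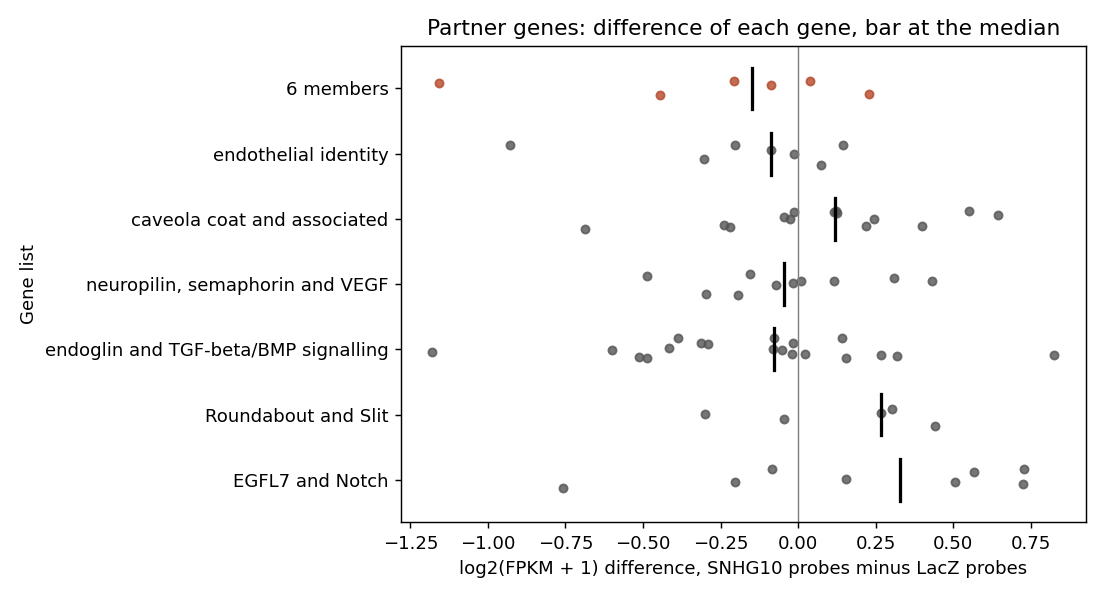
Difference in log2(FPKM + 1), SNHG10 probes minus LacZ probes, for each tested gene (points) of the 6 members and of the 6 partner lists, with a bar at each median. The list medians lie between -0.088 and 0.33 without scaling, and 0 of the 62 partner genes passed the threshold.

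The members whose profile over the 6 libraries was most like that of a partner gene were described by Pearson's r of log2(FPKM + 1), with n = 6 libraries that include both probe sets. CAV1 was closest to SMAD1 (r = 0.97), and 7 of all 10303 other genes had an r at least as high. CAV2 was closest to CAVIN2 (r = 0.803, 305 genes at least as high), and EGFL7 to EHD4 (0.906, 103 genes). ENG was closest to SEMA3D (0.938, 19 genes), ROBO4 to ID1 (0.937, 35 genes) and NRP1 to SEMA3C (0.86, 196 genes). With so many genes over 6 libraries, these likenesses are descriptions only.

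Markers of other cell types set the members in context. Of 19 hepatocyte markers 17, including ALB, APOA1, TTR and HNF4A, were not among the rows, and the remaining CPS1 and SERPINA1 summed to 1.04 to 1.72 FPKM with SNHG10 probes, against 1.25 to 2.12 FPKM with LacZ probes. Genes without a row were not analysed here, so the label of hepatocellular carcinoma could be checked by these 2 low markers only. The epithelial keratins KRT18 (945 to 1122 FPKM), KRT8 (465 to 633 FPKM) and KRT19 (394 to 449 FPKM) were abundant, whereas EPCAM and CDH1 were not among the rows. The mesenchymal VIM lay at 833 to 1522 FPKM, FN1 at 103 to 152 FPKM and ACTA2 at 7.69 to 40.8 FPKM. Means of the lower markers of that list were 23.3 (COL3A1), 18.4 (THY1), 6.26 (TAGLN) and 2.14 FPKM (COL1A1). CDH2, PDGFRB and S100A4 had means of 1.84, 1.67 and 0.726 FPKM, and COL1A2 and PDGFRA were not among the rows. Of 8 leukocyte markers, CD68 (35.3 to 54.4 FPKM) and CD14 (0.763 to 2.69 FPKM) were listed, and PTPRC was not among the rows. Summed over the list, the epithelial markers gave 1839 to 2084 FPKM with SNHG10 probes, against 2027 to 2133 FPKM with LacZ probes, and the fibroblast and mesenchymal ones 1056 to 1377 and 1126 to 1718 FPKM. Of the 4 tested epithelial markers all had negative log2 differences, beside 56.7% negative among all genes tested. KRT18 (-0.026) and KRT19 (-0.010) lay above the median of -0.054 over all genes tested, and KRT7 (-0.16) and KRT8 lay below it. The split of this list under other scalings was not tested. KRT8 did not overlap, at 549, 544 and 465 FPKM with SNHG10 probes, against 601, 589 and 633 FPKM with LacZ probes (-0.23 ± 0.091 SE, adjusted p = 0.885 by limma). Of the 9 tested fibroblast and mesenchymal markers, 4 were positive and 5 negative. TAGLN, an actin-binding protein of smooth muscle named after its values were seen, had the largest log2 difference of these 9, with 9.55, 1.93 and 21.0 FPKM with SNHG10 probes, against 1.72, 1.38 and 1.99 FPKM with LacZ probes (1.71 ± 0.68 SE, adjusted p = 0.885 by limma). The part of these markers in the values of the members was not tested.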

How the data were processed

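The authors deposited FPKM values per transcript for each of 6 libraries, per the file headers, and no counts. Per the submitters' processing notes, Bowtie2 2.1.0 and the build hg19 were used; what estimated FPKM is not given in the sources used here. Every row reached at least 0.507 FPKM in some library. Values go down to 5e-06 FPKM, so whole reads could not be recovered and the depth is unknown; library totals were 268794 to 272909 FPKM for SNHG10 probes, against 271354 to 277118 FPKM for LacZ probes.

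FPKM were summed per gene symbol. Genes, and separately transcript rows, reaching 1 FPKM in 3 or more libraries entered limma 3.58.1 under R 4.3.3 (lmFit, eBayes with trend) on log2(FPKM + 1); p-values were adjusted by Benjamini-Hochberg over all features tested, at a threshold of 0.05. Log2 differences are on that scale, which understates changes of low genes. Single values and shares were compared by two-sided exact permutation tests over 20 assignments. The fits were also run on simulated data, whose outcome is not shown here. Whether 3 against 3 libraries could call a change as large as that of EGFL7 was not established. The members, lists and tests were chosen with earlier results of these data known. Genes named were the members, and per partner list the 3 with the smallest p and the 3 with the highest mean. Also named were, per marker list, the 3 with the highest mean, and the partner gene most like each member. The other listed endothelial identity genes, KRT7 and the genes named as absent from the rows were chosen after seeing the data. So were the lower fibroblast and mesenchymal markers, TAGLN among them. Other settings are described after the report. Python 3.11.15 with pandas 2.3.3 was used for sums and exact tests.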

Additional observations from a re-analysis of the deposited data

How the results depend on the processing

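Unknown depth and 3 libraries per probe set limit what can be shown for low members such as ROBO4. No member gene and no member transcript passed the threshold of limma under any alternative that tested it, and EGFL7, NRP1, CAV1, CAV2 and ROBO4 kept their direction in each. The adjusted p of EGFL7 ran from 0.768 to 0.922 and its log2 difference from -1.36 to -0.89. Same-numbered libraries deviated together at correlations of 0.0151, 0.0121 and 0.0161, all below 0.1. Every library nevertheless correlated best with its own number, a hint from the data only. These values do not settle whether same-numbered libraries were paired. With the replicate number as a block, 0 genes and 0 transcript rows were higher or lower, and the pairing changed no call of a member; the log2 differences of the members are the same in that fit (EGFL7 -1.16). ROBO4, the only member under 5 FPKM, gave no value with a filter of at least 5 FPKM. Of 828 alternative values, 751 kept their direction and side, or moved by less than the spread, while 32 reversed and 45 moved. Either other filter, the fit without trend, robust eBayes and the block cannot change a log2 difference (NRP1 -0.444 in each). Their kept directions are therefore no test of it, and the count of 751 includes them.

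Counts over all features moved as follows. Transcript rows higher and lower numbered 26 and 27 without trend, 3 and 3 under the 5 FPKM filter, likewise 3 and 3 unfiltered, and 3 and 2 for a pseudocount of either 0.1 or 5. Leaving out 1 library gave 0 to 1 genes higher, 0 to 1 genes lower, and 0 transcript rows in either direction.

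Signs turned, both near 0 and in transcripts with larger differences (CAV1-205 at 1.07, EGFL7-202 at -0.93, CAV1-209 at -0.76 and CAV2-202 at 0.66 with all libraries). ENG-201 was 0.036 under median-ratio scaling, 0.045 under quantile normalization, and CAV1-204 was -0.0090 with a pseudocount of 5. Over leave-one-out runs the log2 difference ranged from -0.072 to 0.17 for ENG, -1.36 to -0.94 for EGFL7, -0.63 to -0.34 for NRP1, -0.12 to -0.058 for CAV1, -0.30 to -0.10 for CAV2, 0.070 to 0.38 for ROBO4, -0.37 to 0.53 for CAV1-201, -0.88 to 0.24 for CAV1-203, -0.54 to 0.49 for CAV1-204, -0.57 to 2.41 for CAV1-205, -2.32 to 0.43 for CAV1-209, -0.37 to 0.11 for CAV2-201, -0.18 to 1.82 for CAV2-202, -2.44 to 0.12 for EGFL7-202, -0.17 to 0.12 for ENG-201, -0.047 to 0.27 for ENG-202, -0.47 to 0.15 for NRP1-205, -1.06 to 0.60 for NRP1-207 and -0.99 to 0.23 for PODXL. Differences in the leading share ranged from -5.65 to 1.16 percentage points for ENG, -15.1 to 2.70 for NRP1 and -8.23 to 15.4 for CAV2, and the difference in the CAV1 to CAV2 ratio from -0.079 to 1.34.

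List medians shifted too. The endothelial identity median was -0.20 with no filter and -0.15 to 0.011 over leave-one-out runs, turning positive without LacZ replicate 3. The caveola median was 0.050 with at least 5 FPKM, 0.17 with median-ratio scaling and 0.0035 to 0.11 over leave-one-out runs. The neuropilin median was -0.16 with no filter and -0.15 to 0.064 over those runs. The endoglin median was -0.021 with at least 5 FPKM, -0.024 with median-ratio scaling, -0.028 with quantile normalization and -0.16 to -0.055 over the runs. The Roundabout median ranged from 0.12 to 0.44. The Notch median was 0.16 with a pseudocount of 5, 0.034 with at least 5 FPKM and 0.092 to 0.34 over the runs. The cause was not tested. The NRP1 grouping by 3′ end and the 2 CAV1 ratios were chosen after seeing the data.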
